A study of Mus musculus with 2 samples.

Results

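Prrc2a peaks inside coding sequence were examined in the whole brain of 4-week-old C57BL/6J mice, all male and wild-type. The assay was RIP-seq, which sequences the RNA that a protein carries along when an antibody pulls the protein down, here an antibody against endogenous Prrc2a. The series holds 2 libraries of this single condition, named replicate 1 and replicate 2, with no treatment, no mutant and no transgene. The protocol lists 3 brains in a common lysis step, the labels do not say which brains went into which library, and the number of replicates limits every error given here. Of the 18129 peaks of replicate 1, 8372 overlapped a replicate 2 peak by at least 1 bp. Of these shared peaks, 2828 (33.8%) had their midpoint in the coding sequence (CDS) of a protein-coding transcript and overlapped no annotated start or stop codon. These 2828 peaks, in 1321 protein-coding genes, are the regions described below. They were chosen by a measured outcome, a peak call in both libraries, and by position, so that their fold enrichments are a description and carry no test. Fewer cells of a type and less RNA per cell cannot be told apart in a whole brain.

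Prrc2a is a large, proline-rich protein with a coiled coil that binds RNA. It was proposed as a reader of N6-methyladenosine (m6A), the most common internal modification of mRNA, and is studied in brain for its part in the oligodendrocyte lineage that forms myelin. The methyltransferase that writes m6A acts on the core GGAC, with GGACT as its best-known pentamer, and m6A in mRNA is known to gather in long internal exons and around stop codons. Inside coding sequence, a bound protein meets the translating ribosome, and exon borders carry the marks left by splicing.

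The sequences below show what such a region holds. The first 5 are coding stretches of the most enriched peaks with a GGACT in the bases common to both replicates, 1 per gene. Each is written 5′ to 3′ on the strand of the gene, with the GGACT in capitals, from mm10 (GRCm38). Wnt1 lies at chr15:98791830-98791950 on the plus strand, Hist1h3a at chr13:23762061-23762181 on the minus strand, 2900026A02Rik at chr5:113183229-113183349 on the minus strand, Fat4 at chr3:38951107-38951227 on the plus strand and Kcnh5 at chr12:75087467-75087587 on the minus strand.
Wnt1: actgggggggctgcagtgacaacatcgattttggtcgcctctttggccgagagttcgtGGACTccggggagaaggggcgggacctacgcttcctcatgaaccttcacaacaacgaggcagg
Hist1h3a: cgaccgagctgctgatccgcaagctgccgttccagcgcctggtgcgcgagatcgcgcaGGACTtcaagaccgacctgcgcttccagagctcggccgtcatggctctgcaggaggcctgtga
2900026A02Rik: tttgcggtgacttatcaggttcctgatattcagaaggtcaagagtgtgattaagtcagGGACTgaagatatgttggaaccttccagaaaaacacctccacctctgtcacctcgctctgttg
Fat4: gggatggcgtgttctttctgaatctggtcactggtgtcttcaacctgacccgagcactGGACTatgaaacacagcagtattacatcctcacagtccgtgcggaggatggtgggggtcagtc
Kcnh5: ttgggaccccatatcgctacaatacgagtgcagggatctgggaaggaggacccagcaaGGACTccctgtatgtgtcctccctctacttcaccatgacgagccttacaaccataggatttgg
The adenosine of the capital letters is base 557 of the 1110-nt coding sequence of Wnt1, base 233 of 408 in Hist1h3a, base 3058 of 5301 in 2900026A02Rik, base 5714 of 14943 in Fat4 and base 1247 of 2964 in Kcnh5.

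Olig2, the transcription factor that specifies oligodendrocytes and the target the study followed, is shown because its weak peak cuts through such a motif. The stretch at chr16:91226482-91226651 on the plus strand holds the 140 bases common to both replicates and the 30 bases before them, with each GGAC in capitals.
Olig2: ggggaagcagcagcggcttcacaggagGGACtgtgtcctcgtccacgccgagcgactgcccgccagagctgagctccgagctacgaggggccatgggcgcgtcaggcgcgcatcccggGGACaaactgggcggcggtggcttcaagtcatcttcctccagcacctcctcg
The first GGAC has its adenosine at base 112 of the 969-nt coding sequence and lay wholly inside the replicate 2 peak, whereas the replicate 1 peak began at its last base. The second, with its adenosine at base 203, lay inside both peaks. The Olig2 peak spanned chr16:91226512-91226883 in replicate 1, with a fold enrichment of 1.69, and chr16:91226413-91226651 in replicate 2, with a fold enrichment of 1.75. Both values lay below the median of all 2828 peaks in their replicate.

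Many of the peaks sat on a short exon and reached into introns on both sides, and the most enriched of these is shown for that reason. It lies in Lrba, a BEACH-domain protein of vesicle trafficking. The stretch at chr3:86304196-86304473 on the plus strand has the 198-nt coding exon 9 of 56 in capitals and 40 intron bases on each side.
Lrba: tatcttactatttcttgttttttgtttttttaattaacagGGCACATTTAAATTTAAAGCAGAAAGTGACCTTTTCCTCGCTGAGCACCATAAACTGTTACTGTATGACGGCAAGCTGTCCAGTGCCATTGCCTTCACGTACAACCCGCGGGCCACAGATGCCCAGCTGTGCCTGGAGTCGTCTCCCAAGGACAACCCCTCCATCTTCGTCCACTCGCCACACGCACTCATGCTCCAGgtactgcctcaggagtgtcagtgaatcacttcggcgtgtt
The replicate 1 peak began 51 bases before this exon and ended 195 bases after it. The bases common to both replicates held 227 coding bases, more than the 198 of this exon, so they also reached another coding exon. The exon holds 1 GGAC.

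The median fold enrichment of the 2828 peaks was 2.30 in replicate 1, with a range from 1.29 to 17.0, and 2.79 in replicate 2, with a range from 1.33 to 18.7. Most were therefore modest enrichments, and 286 peaks lay below 2 in both replicates. A value of at least 4 in both was held by 160 peaks (5.66%) in 105 genes. Only the peak of Wnt1 reached 10 in both. Shared peaks over stop codons had medians of 2.33 and 2.85 in the 2 replicates, those over start codons 2.54 and 3.01, and those in 3′ UTRs 1.99 and 2.65. The replicates of the coding peaks were further apart than the medians of coding and stop codon peaks were within either replicate.

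**Figure D1:**
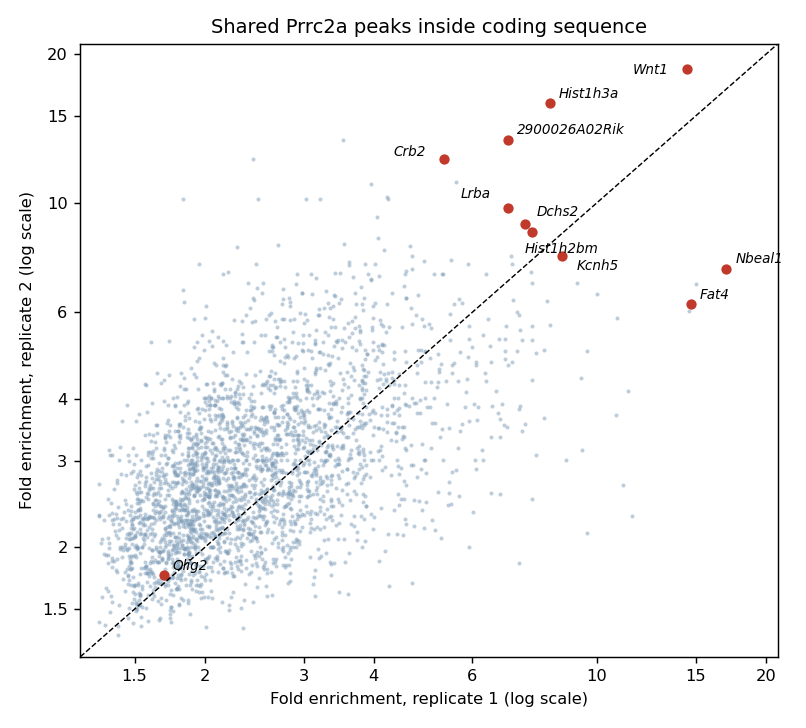
Fold enrichment of each of the 2828 shared peaks inside coding sequence in replicate 1 (horizontal) and replicate 2 (vertical), both on log axes, with the line of equal values dashed. The 10 genes with the largest geometric mean and Olig2 are marked in red, and most points lie above the dashed line.

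Within single peaks the replicates differed by more than within the medians. The log2 ratio of replicate 1 to replicate 2 was -0.24 at the median, with an SD over peaks of 0.52, and 853 peaks (30.2%) were higher in replicate 1. The values lay within 1.5-fold of each other in 1990 peaks (70.4%) and more than 2-fold apart in 207 (7.32%). The Spearman correlation of the enrichments was 0.539 across peaks, which is a description over peaks that share libraries and transcripts. The median width was 450 bp in replicate 1 and 457 bp in replicate 2, and the overlap had a median of 382 bp. At least 50% of both peaks was shared in 2035 (72.0%).

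The share of coding peaks that were shared lay near that of 3′ UTR peaks in both replicates. Of the 4843 replicate 1 peaks at such positions, 58.4% overlapped a replicate 2 peak, against 46.2% of all replicate 1 peaks. Of the 6926 replicate 2 peaks at such positions, 44.7% were shared, against 47.8% of all replicate 2 peaks. In replicate 1 the share was 60.2% for 3′ UTR, 76.8% for stop codon, 71.1% for start codon and 13.6% for intron peaks. In replicate 2 it was 43.5%, 62.6%, 60.7% and 33.4% in the same order. Enrichment did not order the sharing in one way. The shared peaks had a lower median than the unshared in replicate 1, 2.30 against 2.50, and a higher one in replicate 2, 2.74 against 2.27. Width ordered it more evenly at its upper end, as 93.3% of replicate 1 and 89.8% of replicate 2 coding peaks of at least 1000 bp were shared.

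At the border of the rule, the Sertad3 peak shared 1 bp with its replicate 2 partner, that of Dscaml1 8 bp and that of Tut4 9 bp. Just outside, a Pde4dip peak missed the nearest replicate 2 peak by 19 bp, a Sall2 peak by 23 bp and a Dst peak by 24 bp. Such near misses were few, since 27 of the 2015 unshared coding peaks of replicate 1 had a gap below 100 bp, while 878 had no replicate 2 peak within 10 kb.

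The most enriched peak was that of Wnt1, a secreted Wnt ligand that patterns the midbrain and hindbrain. It spanned chr15:98790686-98792723 in replicate 1, with a fold enrichment of 14.5, and reached 18.7 in a replicate 2 peak of 3413 bp. Its midpoint lay in coding exon 3 of 4.

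The other 9 of the 10 genes with the largest geometric mean also lay above the 95th percentile of all 2828 peaks, 5.04 in replicate 1 and 5.77 in replicate 2, in both replicates. Hist1h3a, a gene for core histone H3, had enrichments of 8.24 and 15.9 in replicates 1 and 2, and Hist1h2bm, for core histone H2B, had 7.65 and 8.74. Histone genes have near-identical copies, so reads of these genes could be split or lost when only uniquely mapped reads are kept, and their values are uncertain. Nbeal1, another BEACH-domain gene, had 17.0 and 7.36, and Fat4, a giant cadherin of cell polarity, had 14.7 and 6.22. Both were higher in replicate 1. Crb2, a Crumbs polarity gene, had 5.34 and 12.3, and 2900026A02Rik had 6.94 and 13.4, both higher in replicate 2. Kcnh5, a voltage-gated potassium channel, had the closest values, 8.67 and 7.81. Dchs2, a Dachsous cadherin, had 7.46 and 9.08, and Lrba had 6.94 and 9.74. Of these 10 genes, 7 were higher in replicate 2, 5 had the peak in a coding exon of at least 400 nt, and 7 held a GGACT in the common coding bases. Over all peaks, 30.2% were higher in replicate 1, 53.3% lay in such exons and 32.0% held a GGACT there. The common coding bases were long in some of the 10, with 2608 nt in 2900026A02Rik and 793 nt in Wnt1. Their median over all peaks was 241 nt.

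Some values near the top were also held by many other peaks. A value that 10 or more peaks of the replicate share was found in 19.1% (replicate 1) and 28.5% (replicate 2) of the 351 peaks with a geometric mean of at least 4, and in 4% and 11.8% of the other 2477. Over all peaks, any position, it was found in 24.8% and 15.3%.

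The peaks were spread unevenly over genes. Of the 21866 protein-coding genes, 6.04% had such a peak. A single peak was found in 769 of the 1321 genes (58.2%), 441 genes had 2 to 4, and 111 genes with 5 or more held 956 peaks (33.8%). Peaks of 1 gene share a transcript and are not independent. The share of genes with a peak grew with the length of the longest coding sequence, from 0.285% of genes below 500 nt and 3.97% at 1000 to 2000 nt to 22.5% at 3000 to 5000 nt and 51.4% at 10000 nt or more. The median longest coding sequence was 3060 nt in genes with a peak and 1176 nt in all protein-coding genes.

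The 10 genes with the most peaks had coding sequences of 7419 nt or more. Csmd1, whose protein carries complement-type CUB and sushi domains, had 46 peaks with their midpoints in 46 of its 70 coding exons. They covered 72.3% of its coding bases. Their median enrichment was 3.14 in replicate 1, with values from 1.56 to 11.5, and 3.55 in replicate 2, with values from 1.86 to 6.39. Csmd3 had 25 peaks and Csmd2 had 14, in genes with nearly as many coding exons (71 and 70), so the family was covered unevenly.

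Fras1, a basement membrane protein, had 31 peaks in 31 of 74 coding exons, with medians of 3.87 and 3.61. Mdn1, an AAA ATPase of ribosome assembly, had 28 in as many coding exons, with medians of 2.70 and 3.54. Fbn2, a fibrillin of extracellular microfibrils, and Lrp1b, a member of the LDL receptor family, had 18 each. Fat3 had 16, Dmd, the gene of dystrophin, had 15, and Notch2, a receptor of Notch ligands, had 15. In most of these genes, then, a peak stood for 1 exon.

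Ahnak, a giant scaffold protein, was the opposite case. Its 14 peaks had their midpoints in a single coding exon, and 6 of them fell in 1 replicate 2 peak of 6517 bp. All 14 were higher in replicate 2, with medians of 2.34 and 5.16. In Notch2, 1 of 15 peaks was higher in replicate 1, with medians of 2.46 and 3.97. In Nbeal1 the order was turned, as 11 of 12 peaks were higher in replicate 1, with medians of 6.68 and 5.14. Most peaks of each of these 3 genes thus went in 1 direction between replicates, and the genes were picked after their values were seen. Of all shared peaks inside coding sequence, 30.2% were higher in replicate 1, so the direction in Ahnak and Notch2 was also the usual one. The 14 Ahnak peaks drew on 8 replicate 2 peaks, so their directions are not separate observations.

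Compared with windows of the same transcripts, the peaks were fewer in short coding exons and more frequent in those of middle length. The median coding exon under a peak midpoint was 473.5 nt, against 273 nt over windows of about 100 nt (50 nt to each side of a centre) tiled along the same 1337 transcripts and 170 nt over those windows that lay outside all peaks of either replicate. Exons below 200 nt held 22.7% of the peaks and 39.3% of the windows. Exons of 200 to 400 nt held 23.9% and 16.3%, and exons of at least 400 nt held 53.3% (95% Wilson interval 51.5 to 55.2, counting error only) and 44.5%. The order was not the same among the longest exons, since those of at least 1000 nt held 30.7% of the peaks and 31.3% of the windows, and those of at least 2000 nt 13.3% and 16.9%.

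The share in exons below 200 nt stayed below that of the windows in each replicate alone, at 30.4% against 41.1% for all replicate 1 coding peaks and 38.6% against 44.0% for all replicate 2 coding peaks. In exons of 200 to 400 nt it was 23.6% against 16.6% for all replicate 1 coding peaks and 23.4% against 16.8% for all replicate 2 coding peaks. For the 160 peaks enriched at least 4-fold in both replicates it was 20.6% against 21.1%, so the excess was absent there. In the other settings compared with windows the share in this class stayed above that of the windows. The excess in exons of at least 400 nt did not hold in every setting either. The share was 46.0% against 42.3% for all replicate 1 coding peaks, 38.0% against 39.2% for all replicate 2 coding peaks, and 42.3% against 41.7% for peaks that shared at least 50% of both widths. In the other settings the excess was larger. The share was 50.6% against 38.8% for the 160 peaks and 57.5% against 46.0% with replicate 2 positions. It was 70.2% against 45.9% with the region of most overlapping bases.

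Counted by exon, 2.16% of the 11878 coding exons below 150 nt in these transcripts held a peak midpoint. It was 16.4% at 200 to 300 nt, 48.5% at 400 to 600 nt and 88.9% of the 27 exons of 5000 nt or more. Transcripts were included because they have a peak, so that a transcript with a single coding exon is always counted as hit, which applies to 140 peaks. Per kilobase the order was another one. The density was 0.210 peaks per kb in exons below 150 nt, highest at 1.09 in exons of 300 to 400 nt and 0.429 in exons of 2000 to 5000 nt. Peaks in long exons were wider, with a median of 693.5 bp in replicate 1 at 2000 to 5000 nt against 407 bp below 150 nt.

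**Figure D2:**
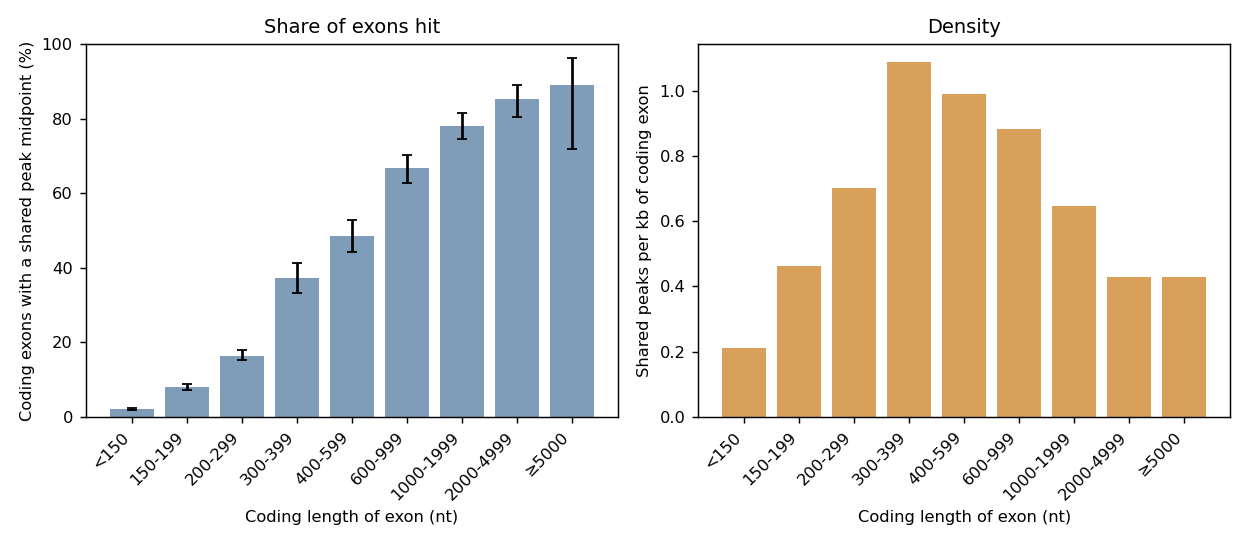
Left, share of coding exons (%, bars, with 95% Wilson intervals) that hold the midpoint of a shared peak, by the coding length of the exon (nt) in the 1337 transcripts with a peak. Right, shared peaks per kb of coding exon in the same classes. The share is 2.16% in the shortest and 88.9% in the longest class, whereas the density is highest, at 1.09 per kb, for exons of 300 to 400 nt.

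Most midpoints lay in the central part of their exon, in short and in long exons. The rule keeps the midpoint inside the exon, which bounds its distance from the centre in short exons. The midpoint lay a median of 11 nt from the exon centre in the 642 peaks with an exon below 200 nt, and 92.2% lay in the central 50% of the exon. In the 675 peaks with exons of 200 to 400 nt the median distance was 18.5 nt, and 66.8% of midpoints lay on the 3′ side of the exon centre. The central 50% held 84.4% of these midpoints. It held 74.7% of the 1505 midpoints in exons of at least 400 nt, where the median distance was 125 nt. A peak has at least 200 bp, and the median share of exonic bases was 33.0% for exons below 150 nt and 42.7% for 150 to 200 nt. Over all 2828 peaks, 991 were wholly exonic and 655 had most of their bases outside exons. The median enrichment was 2.63 and 3.01 in the 2 replicates for exons below 150 nt and 2.17 and 2.89 for exons of 2000 to 5000 nt, a smaller difference in replicate 2 than in replicate 1.

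Along the coding sequence, the peaks lay towards the middle and the 5′ side. The 5 equal parts from start to stop held 17.7%, 27.6%, 26.1%, 18.9% and 9.67% of the peaks, against 20.2%, 20.3%, 20.3%, 20.3% and 18.9% of the windows. Both replicates alone gave the same order at the 3′ end, since the last part held 10.7% of all coding peaks in each of them. The low ends are in part the rule itself, which removed peaks over start and stop codons.

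Coding sequences of at least 3000 nt carried 1943 of the peaks in 675 transcripts. With peaks over codons kept, peaks on other transcripts of this length were counted too, but the length used was that of the 675. The densities with such peaks are therefore upper limits. Over the first 250 nt after the start codon, the density of shared peak midpoints was 0.196 per kb without and at most 0.711 per kb with the peaks over codons. More than 1500 nt from both codons it was 0.567 and at most 0.584 per kb. Whether the start lay above the centre cannot be read from these values. Over the last 250 nt before the stop codon the density was 0.0711 per kb without and at most 0.415 per kb with them. From 250 to 500 nt before the stop codon it was at most 0.320 per kb with such peaks kept, and from 750 to 1000 nt at most 0.385 per kb. The density before the stop codon therefore stayed below that of the centre at each of these distances. Peaks over the stop codon whose midpoint lay in the 3′ UTR are not in this count. The medians of enrichment were also lowest in the last of the 5 parts, at 2.12 and 2.51, and were 2.35 and 2.87 in the first.

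**Figure D3:**
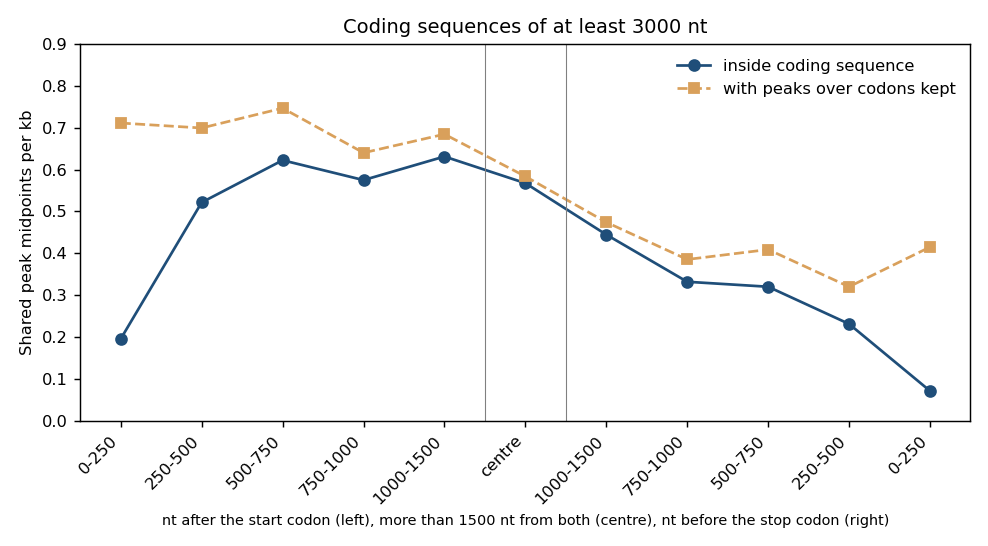
Shared peak midpoints per kb (vertical) in coding sequences of at least 3000 nt, by distance in nt after the start codon (left), in the centre more than 1500 nt from both codons, and by distance before the stop codon (right). The solid line counts peaks inside coding sequence, and the dashed line adds peaks over start or stop codons with a midpoint in coding sequence. The dashed line is 0.711 per kb at the start, 0.584 in the centre and 0.415 at the stop.

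The core GGAC was about as common near the peak midpoints as elsewhere in the same transcripts. The spliced coding sequence within 50 nt of the midpoint held it in 1132 of 2821 peaks (40.1%, 95% Wilson interval 38.3 to 41.9). It was held by 38.8% of all windows of that length along the same transcripts, 37.9% of those outside peaks and 37.8% of those in all protein-coding genes. The windows of peaks had a higher GC content, with a median of 54.5% against 52.5% in the same transcripts. Weighted to the GC classes of the peaks, the same transcripts gave 40.4%. By replicate alone the share was 40.1% and 41.4%. The midpoint of a shared peak is that of replicate 1. It lay a median of 48 nt from the replicate 2 midpoint, with an upper quartile of 146 nt. A site away from the midpoint could fall outside such a window.

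Among the 12 orders of the letters A, C, G and G, GGAC ranked sixth by the ratio of peaks to windows, at 1.03, and ACGG ranked first at 1.15. GGACT was in 11.1% of the peak windows and 10.7% of the transcript windows, and AAACT or GAACT, other pentamers of the m6A type, in 18.1% and 19.5%. All motifs were read on the gene's strand only, and GGACT matches are GGAC matches too. The density of GGAC was 5.29 per kb within 60 nt of the midpoint, 5.09 at 200 to 300 nt and 5.08 over the whole coding sequences. The share with GGAC was also level across enrichment, at 40.9% for a geometric mean below 2 and 41.3% for 4 or more. Over all coding bases common to both replicates, a median of 241 nt, 2000 of 2822 peaks (70.9%) held a GGAC and 902 (32.0%) a GGACT. No background share was taken for stretches of these lengths. A match is a run of letters and does not say that the adenosine is methylated.

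**Figure D4:**
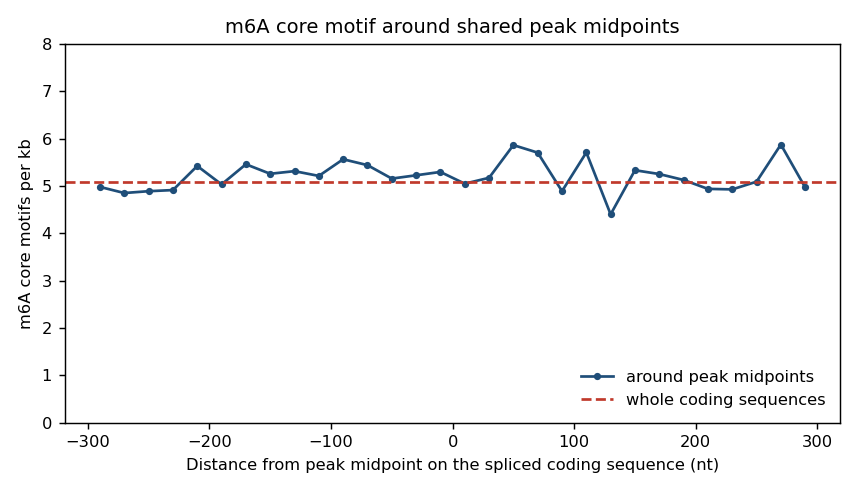
Occurrences of the m6A core motif per kb (vertical) in 20-nt bins by distance from the peak midpoint on the spliced coding sequence (horizontal, nt), with the density over whole coding sequences of the same transcripts as a dashed line at 5.08 per kb. The bins on either side of the midpoint are at 5.30 and 5.05 per kb.

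The peptides encoded under the windows differed in a few residues. Over 92597 codons of the peak windows, lysine made up 4.43% against 5.53% in the same transcripts, and glutamate 6.62% against 7.27%. Cysteine made up 2.47% against 2.18% and serine 10.4% against 9.57%. In 53.8% of its occurrences under peaks GGAC held the aspartate codon GAC in frame, against 57.9% in the same transcripts.

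Among the gene lists, which were chosen with earlier results of these data known, regulators of chromatin had the largest share of genes with a peak. Of 51 genes, 36 (70.6%) had one, beside the 6.04% of all protein-coding genes and the 35.3% that all genes gave when weighted to the coding lengths of the list. The median of their strongest peaks was 2.33 and 2.89. Tet1, which oxidises methylcytosine in DNA, led with 10.8 in replicate 1 and 3.71 in replicate 2. Crebbp, a histone acetyltransferase, had 10 peaks and a top value of 4.5 and 5.59. Srcap, a remodeller that places histone variant H2A.Z, had 3.38 and 5.80, and Setd1b, a histone H3 methyltransferase, had 3.91 and 4.53. The Kmt2 methyltransferases Kmt2a to Kmt2e, Tet2, Tet3, Arid1a, Arid1b and Chd7 were among the others with a peak. Smarca4, Smarcc2 and Dnmt1 had no exonic peak in either replicate.

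Zinc finger genes named Zfp had a peak in 61 of 394 cases (15.5%), beside 7.17% at their coding lengths. Zfp217 had 4.57 and 6.42, Zfp618 had 4.67 and 6.13, Zfp780b had 3.67 and 7.08, and Zfp292 had 4.13 and 5.69. All 4 were higher in replicate 2, the more common direction, as 30.2% of all shared peaks inside coding sequence were higher in replicate 1. Among giant and protocadherin-type cadherins, 11 of 26 genes (42.3%, beside 29.3% at their coding lengths) held 62 peaks, with top values after Fat4 and Dchs2 of 7.37 and 5.27 in Celsr1 and of 5.56 and 6.24 in Fat3.

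Among synaptic and cytoskeletal genes the distance from the share of genes of their length varied between lists. Presynaptic active zone genes had a peak in 6 of 30 (20.0%, beside 17.6% at their coding lengths), and Bsn and Pclo, the giant scaffolds of the active zone, had 10 and 6 peaks with top values of 1.89 and 3.30 and of 2.53 and 2.89. Erc1 had 1.81 and 2.58, and Unc13c, a vesicle priming factor, had 2.02 and 1.90. Postsynaptic scaffolds had a peak in 9 of 30 (30.0%, beside 19.1%), with Sipa1l3 at 1.81 and 3.39, Dlgap2 at 2.63 and 1.60, Shank1 at 1.35 and 2.33 and Magi1 at 1.60 and 1.88. Pclo lay above the medians of all 2828 peaks in both replicates, Bsn, Sipa1l3 and Dlgap2 in 1 replicate each, and Erc1, Unc13c, Shank1 and Magi1 in neither.

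Microtubule and axonal genes had a peak in 10 of 40 (25%, beside 26.5%). Macf1, a spectraplakin that links actin and microtubules, had 10 peaks with a top value of 4.06 and 5.13, and Dst, of the same family, had 4.16 and 4.30. Kif21b, a kinesin motor, had 3.99 and 3.8, and Dync1h1, the dynein heavy chain, had 2.51 and 2.31. Large ubiquitin ligases had a peak in 10 of 29 (34.5%, beside 36.2%), led by Rnf213 at 3.95 and 10.9 and followed by Ubr4 at 3.25 and 5.21, Birc6 at 3.61 and 3.75 and Herc1 at 2.18 and 5.14. Voltage-gated sodium and calcium channels had a peak in 6 of 17 (35.3%, beside 36.6%), led by Cacna1d at 4.02 and 7.53, with Cacna1i at 2.27 and 4.13, Scn3a at 2.84 and 2.57 and Cacna1c at 2.02 and 2.37. In these 3 lists the share lay close to that of all genes of the same lengths. The latter fell inside the Wilson interval of each list, 14.2% to 40.2%, 19.9% to 52.7% and 17.3% to 58.7% in the order given. The share at the coding lengths also fell inside the interval of the cadherins, 25.5% to 61.1%, the presynaptic genes, 9.51% to 37.3%, and the postsynaptic scaffolds, 16.7% to 47.9%. The same held for 2 lists given below, oligodendrocyte regulators and myelin genes, 4.97% to 28.1%, and m6A enzymes and readers, 6.68% to 35.9%. No direction is therefore read from any of these lists.

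Of the regulators of the oligodendrocyte lineage and myelin genes, 4 of 32 (12.5%, beside 5.93%) had a peak, and none of the 4 is a structural myelin gene. Sox6, a transcription factor of the lineage, had 3.03 and 4.27, Zeb2 had 1.80 and 1.83, and Olig2 was lower than both in each replicate. The m6A enzymes and readers had a peak in 4 of 24 (16.7%, beside 12.9%). Virma, a subunit of the writer complex, had 2 peaks with a top value of 2.92 in both replicates. Rbm15b and Zc3h13, other writer subunits, had 1.87 and 2.09 and 1.71 and 2.12, and Prrc2c, a paralog of Prrc2a, had 1.67 and 2.05.

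Some other lists had no such peak. No cytosolic ribosomal protein gene of 83, no glycolytic enzyme of 16 (17 annotated entries, as Aldoa has 2), no respiratory chain subunit of 80 and no olfactory receptor of 1134 had a peak inside coding sequence, where their coding lengths gave between 0.482% and 4.95%. For the first 3 of these lists that share lay inside the Wilson interval, with upper ends of 4.42%, 18.4% and 4.58%, so no shortfall is read there. For olfactory receptors it was 0.506%, above the upper end of 0.338%. Of 67 replication-dependent histone genes, 4 (5.97%, beside 0.302%) had one. After Hist1h3a and Hist1h2bm these were Hist2h2ab at 3.48 and 7.19 and Hist1h4i at 2.28 and 3.66. A shared peak over exonic bases of any kind was found for 33 of the histone genes.

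The cell type lists of the study gave 67 of 476 neuronal genes (14.1%), 54 of 465 astrocytic genes (11.6%) and 36 of 481 oligodendroglial genes (7.48%), beside 8.24%, 8.72% and 7.38% at their coding lengths. How these lists were chosen is not given in the sources used here, and the difference between them was not tested. The neuronal genes were represented at the top by Fat3, Tacr1 at 3.61 and 7.49 and Lhx6 at 4.68 and 5.69. The astrocytic genes were led by Crb2, Ptchd4 at 9.99 and 6.52, Glis3 at 7.62 and 7.22 and Znrf3 at 7.09 and 6.36. The oligodendroglial genes were led by Fbn2 at 9.21 and 6.87, Rnf43 at 4.93 and 7.62, Thsd4 at 4.18 and 8.02 and Tmem132d at 4.31 and 6.56.

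**Figure D5:**
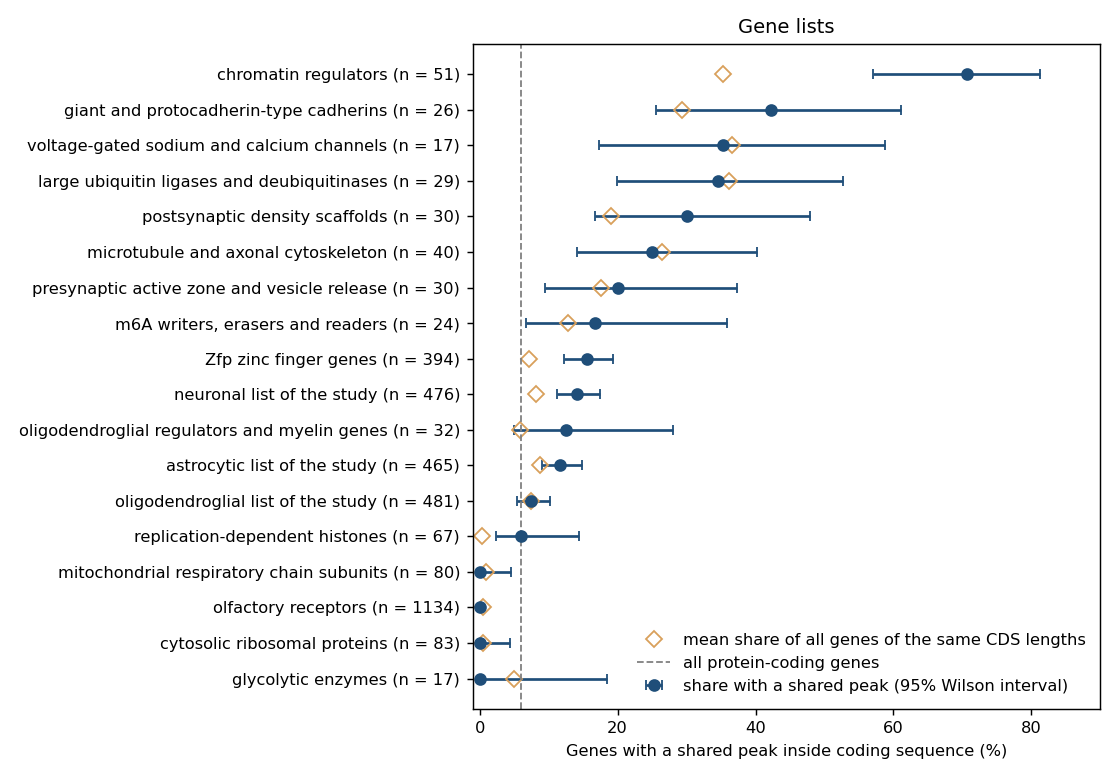
Share of genes (%) in each list with a shared peak inside coding sequence (filled circles, bars are 95% Wilson intervals of counting error), the mean share of all protein-coding genes of the same coding lengths (open diamonds) and the 6.04% of all protein-coding genes (dashed line). Chromatin regulators stand at 70.6%, and the ribosomal, glycolytic, respiratory chain and olfactory receptor lists stand at 0 (n counts annotated entries). The open diamonds of the lists at 0 lie between 0.482% and 4.95%. The lists were chosen with earlier results of these data known.

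Of 36 defining markers of the brain's cell types and the pituitary, 1 (2.78%) had a peak inside coding sequence, beside 6.04% of all protein-coding genes. None of 10 neuronal, 6 astrocytic, 8 oligodendrocyte, 4 endothelial or 4 pituitary markers had a peak inside coding sequence, and of 4 microglial markers Tmem119 had 2 peaks, at 1.89 and 2.18 and at 1.70 and 2.18. An exonic peak in at least 1 replicate was found for 3 of the neuronal, 3 of the microglial and 2 each of the astrocytic, oligodendrocyte and pituitary markers, and for none of the endothelial ones. A peak list gives no expression level, so the labelled tissue could not be checked against its markers in this way, and for a gene that lacks a peak, absent binding and low read coverage look alike.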

How the data were processed

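RIP-seq of Prrc2a was analysed in 2 libraries of 1 condition. After adaptor trimming by the authors, TopHat placed the reads on mm10, reads with a unique position were retained, and MACS2 called peaks in each library at an FDR below 0.05. The submitters' processing notes give TopHat2 2.0.9 and MACS2 2.0.10, and the methods give later versions. The deposited values are peak positions and a fold enrichment, a linear ratio of immunoprecipitate over a control that the sources used here do not name. The lists hold no strand, summit, count or FDR, and the depth is unknown, so no interval could include it.

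Positions count from 1 with both ends included. Regions came from GENCODE release M21 (midpoint in CDS of a protein_coding transcript, no start or stop codon overlapped), and the gene was that with the most overlapping exon bases. Each peak was placed on the APPRIS principal or longest coding transcript that holds its midpoint (2822 of 2828). Where a replicate 1 peak met several replicate 2 peaks, the one with the largest overlap gave the replicate 2 value. Windows reaching 50 nt to each side of a centre were tiled along coding sequences. The sequence was GRCm38.p6 from RefSeq. Genes were named by rule: the 10 with the largest geometric mean enrichment, the 10 with the most peaks, up to 4 per list and Olig2, except that some items are not reported here. Lrba as a sequence, Tmem119, the further chromatin genes and the genes of the replicate contrast were added after their values were seen. The regions and lists were chosen with earlier results of these data known. Alternatives changed 1 choice at a time. No test was run. Functions were tested on simulated data. Python 3.11.15, numpy 2.4.6, scipy 1.17.1, pysam 0.24.0, samtools 1.23.1 and matplotlib 3.10.9 were used.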

Additional observations from a re-analysis of the deposited data

How the results depend on the processing

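With an overlap of at least 50% of both peaks, the share in exons of at least 400 nt was 42.3% in place of 53.3%. With the region of most overlapping bases in place of the midpoint it was 70.2%, and with 200 and 1000 nt as the limit 77.3% and 30.7%, where the windows gave 31.3% at 1000 nt. Peaks enriched 4-fold or more in each replicate numbered 160, in 105 genes, with medians of 5.16 and 5.21. From 1 replicate alone there were 4843 to 6926 peaks in 1923 to 2563 genes, with medians of 2.38 and 2.47, a GGAC share of 40.1% to 41.4% and 38.0% to 46.0% in exons of at least 400 nt. The 5 parts of the coding sequence then held 18.1% to 18.9%, 25.5% to 26.1%, 24.3% to 24.8%, 20.0% to 20.9% and 10.66% to 10.71%. For coding sequences of at least 3000 nt they held 19.6%, 26.5%, 25.2%, 18.4% and 10.3%. With peaks over codons kept, an alternative chosen after seeing the data, they held 22.7%, 23.7%, 22.6%, 16.8% and 14.1%. GGAC was found in 21.4% of 51-nt windows and 64.1% of those reaching 100 nt to each side, where the same transcripts gave 21.7% and 61.9%, GGACT in 11.1% and AAACT or GAACT in 18.1%. Among genes with an exonic peak in either replicate, 25.8% had a peak inside coding sequence. By this measure replication-dependent histones (8.7%), oligodendroglial regulators and myelin genes (22.2%) and the oligodendroglial list of the study (20.8%) lay below all genes, where they lay near or above them before. The basic transcript set and replicate 2 positions were run for the counts, medians, GGAC share and exon share only, and moved none of these by more than the spread between replicates or 1.5-fold. Apart from changes by construction of the setting, causes were not tested. No paired analysis was possible because there is 1 condition. Depth, control counts and strand are unknown, which limits every enrichment, and 2 libraries give no test.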
